A study of Caenorhabditis elegans with 4 samples.

Results

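The 9 genes described here encode the vesicular glutamate transporter and 8 glutamate receptors or receptor subunits of Caenorhabditis elegans, namely eat-4, glr-1, glr-2, glr-3, nmr-1, nmr-2, avr-14, mgl-1 and mgl-2. They were chosen by name and are 9 of the 41614 genes to which transcripts were matched. Their RNA was measured by bulk sequencing of whole larvae at the first larval stage (L1). The dve-1(uf171) mutant was compared with wild type, with 2 libraries of each genotype and 4 in all. Both genotypes were grown at 25 degrees Celsius on plates with E. coli OP50 and synchronized, and about 1200 larvae were pooled for each collection. Apart from dve-1(uf171) the labels name no allele, transgene or drug in either group. No source used here describes the lesion in uf171 or names the wild-type strain.

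Glutamate is a major fast excitatory transmitter of the worm's nervous system, and in some circuits it also inhibits. EAT-4 loads glutamate into synaptic vesicles, and neurons that express it are classed as glutamatergic. Released glutamate opens cation channels of the AMPA, kainate and NMDA types (the GLR and NMR subunits), opens chloride channels (the AVR and GLC subunits), and activates G-protein-coupled metabotropic receptors (MGL). DVE-1 is a homeodomain protein.

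All 9 genes were detected in all 4 libraries, and none passed the test of a difference between genotypes. All 9 point estimates of the difference lay above 0, as did 60.7% of those of all tested genes, with fold changes of mean FPKM between 1.17 and 1.67. FPKM are fragment numbers divided by transcript length and by the size of the library, so they can be compared between genes. Summed over the 9 genes, the level was 88.6 and 87.1 FPKM in the dve-1(uf171) libraries, against 63.97 and 75.8 FPKM in wild type. Of the 9 genes, 0 passed an adjusted p of 0.05 by limma, where 1.66% of the 15202 tested genes did. At an unadjusted limma p under 0.05, 1 gene passed, eat-4, where 6.28% of tested genes were higher in the mutant at that level. The 95% interval of the difference included 0 for the other 8.

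In 7 of the 9 genes the lower dve-1(uf171) value still exceeded the higher wild-type value, and in 0 was the reverse seen. Over all tested genes these shares were 28.1% and 15.9%. Among protein-coding genes whose mean level fell in the range of the 9 genes (1.14 to 27.9 FPKM), they were 32.9% and 13.6%. The 9 genes were measured in the same 4 libraries and can move together, so the count of 7 is a description and not a test. The count includes nmr-1, which reached the mean of 1 FPKM needed for testing only through its mutant values. It was 5 after median-ratio scaling (20.4% of all tested genes) and 6 after quantile normalization (24.2%). It was 4 when each gene was represented by its most abundant transcript alone (27.2%). With any 1 library left out it was 7 to 9, beside 40.3% to 47.03% of all tested genes. Leaving out a library relaxes the condition, so there the count could only stay or rise. The median log2 fold change, mutant over wild type on log2(FPKM + 1), was 0.31 over the 9 genes and 0.09 over all tested genes. Without the first wild-type library it was 0.18 over the 9 genes, and 8 of the 9 stood lower in that library than in the second wild-type library, against 50.6% of all tested genes.

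**Figure D1:**
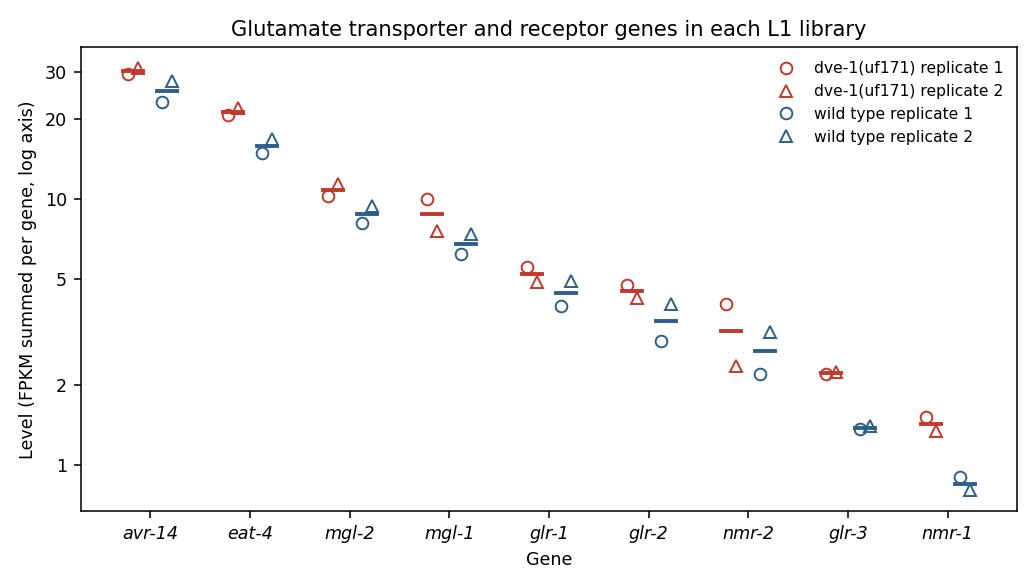
Level of each gene in each library, in FPKM summed over its transcripts on a log axis, with genes ordered by mean level and bars at the group means (n = 2). The dve-1(uf171) points lie above the wild-type points in 7 genes, and the groups overlap in glr-1 and nmr-2.

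The order of the levels was the same in every library. It ran avr-14, eat-4, mgl-2, mgl-1, glr-1, glr-2, nmr-2, glr-3 and nmr-1, and all 8 neighbouring pairs kept that order in 4 of 4 libraries. Over all libraries the ranges of neighbours overlapped in 5 of the 8 pairs. The pairs whose ranges stayed apart were avr-14 and eat-4, eat-4 and mgl-2, and mgl-1 and glr-1. The most abundant gene, avr-14, stood at the 68.9th percentile of tested genes and nmr-1 at the 2.27th. Total counts are not part of an FPKM table, so depth was estimated from steps of whole reads in low transcripts. This gave 17500000 and 16900000 fragments in the mutant libraries, against 22900000 and 21800000 in the wild-type ones. Only 33.4% to 42.04% of the fitted transcripts lay within 0.1 of a whole read, and some would do so at any total. On these rough totals nmr-1 rested on about 56 to 84 fragments a library and avr-14 on about 1228 to 1436. These numbers used the full length of the longest transcript, whereas the fit of depth took off a fragment length. Counting error alone at 56 fragments is 13.4%.

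The transporter gene eat-4 lies on chromosome III from 9136887 to 9141827 on the plus strand (WBcel235, the assembly also named ce11). It was listed at 20.6 and 22.0 FPKM in the mutant, against 14.9 and 16.8 FPKM in wild type. Both mutant values were the higher ones, and each genotype's libraries lay closer to each other than to the other genotype. The means were 21.3 ± 0.985 FPKM in dve-1(uf171) and 15.9 ± 1.32 FPKM in wild type (SD, n = 2 each). The log2 fold change of 0.41 (SE 0.12, 95% interval 0.04 to 0.77) did not pass after adjustment over all genes (limma adjusted p = 0.391). Its unadjusted limma p of 0.0383 became 0.0825 after median-ratio scaling, 0.0773 after quantile normalization and 0.0567 without limma's trend. It lay between 0.0307 and 0.0421 with other pseudocounts, other filters, robust estimation or protein-coding genes only. In these settings too it did not pass after adjustment (limma adjusted p of 0.365 or more). Where only the most abundant transcript was used, the log2 fold change was 0.13 and this limma p was 0.71. With a replicate block this p was 0.075. It was 0.0639 to 0.147 with any 1 library left out. As these are whole animals, more glutamatergic neurons and more eat-4 RNA per neuron cannot be told apart.

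The AMPA-type subunits GLR-1 and GLR-2 work together in the interneurons that command locomotion. The glr-1 gene (chromosome III, 8584163 to 8588642, minus strand) was listed at 5.55 and 4.88 FPKM in the mutant, against 3.97 and 4.92 FPKM in wild type. Its groups overlapped, since the second wild-type library exceeded the second mutant library. Its estimate, a log2 fold change of 0.19 (SE 0.18, interval -0.35 to 0.74), did not pass (limma adjusted p = 0.657), and was 0.067 without the first wild-type library and 0.32 without the second. The glr-2 gene (chromosome III, 7138640 to 7144959, minus strand) was listed at 4.75 and 4.27 FPKM in the mutant, against 2.94 and 4.03 FPKM in wild type. Here the groups did not overlap, but the wild-type libraries differed from each other by more than the second mutant library did from the second wild-type library. Its log2 fold change was 0.31 (SE 0.22, interval -0.33 to 0.94, limma adjusted p = 0.627). It was 0.13 without the first wild-type library and 0.48 without the second.

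The glr-3 gene (chromosome I, 7117808 to 7121545, plus strand) encodes a kainate-type subunit that is also known in the worm as a cold receptor in sensory neurons. It was listed at 2.20 and 2.24 FPKM in the mutant, against 1.37 and 1.40 FPKM in wild type. Its replicates lay close together in both genotypes, and the mutant mean was 1.60 times the wild-type mean. This gave a log2 fold change of 0.43 (SE 0.26, interval -0.33 to 1.20, limma adjusted p = 0.606). The SE is limma's moderated one, which draws each gene's variance towards that of genes of like level. The unadjusted limma p was 0.18 with that trend and 0.0321 without it.

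NMR-1 and NMR-2 are the subunits of the worm's NMDA-type receptor. The nmr-1 gene (chromosome II, 5440238 to 5446606, minus strand) was listed at 1.51 and 1.35 FPKM in the mutant, against 0.903 and 0.807 FPKM in wild type. Its groups did not overlap, and the ratio of means, 1.67, was the highest of the 9 genes. It was also the gene nearest to the filter of a mean of 1 FPKM. Both wild-type values were under 1, so it passed the filter only through its mutant values. On the log2 scale the difference was 0.39 (SE 0.34, interval -0.60 to 1.38, limma adjusted p = 0.627). The nmr-2 gene (chromosome V, 15006341 to 15011660, minus strand) was listed at 4.02 and 2.36 FPKM in the mutant, against 2.21 and 3.18 FPKM in wild type. The groups overlapped, and its log2 fold change of 0.17 (SE 0.33, interval -0.81 to 1.14, limma adjusted p = 0.855) was -0.12 without the first mutant library and -0.025 without the first wild-type library. No shared direction of the NMDA-type subunits can therefore be given.

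AVR-14 is a subunit of glutamate-gated chloride channels, which are the targets of ivermectin. Its gene (chromosome I, 5967247 to 5973326, minus strand) was listed at 29.6 and 30.97 FPKM in the mutant, against 23.3 and 27.8 FPKM in wild type. The mutant values were both higher as deposited, but the groups overlapped after median-ratio scaling and after quantile normalization. With all libraries the log2 fold change was 0.24 (SE 0.14, interval -0.17 to 0.65, limma adjusted p = 0.589). It was 0.12 without the first wild-type library, 0.37 without the second, and 0.14 after median-ratio scaling.

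MGL-1 and MGL-2 are metabotropic glutamate receptors, and both are known to act in the worm's response to starvation. The mgl-1 gene (chromosome X, 9968517 to 9976306, minus strand) was listed at 10.02 and 7.62 FPKM in the mutant, against 6.21 and 7.38 FPKM in wild type. The second mutant library lay just above the second wild-type library, and the groups overlapped after median-ratio scaling. The log2 fold change was 0.33 (SE 0.20, interval -0.27 to 0.92, limma adjusted p = 0.614). It was 0.15 without the first mutant library and 0.50 without the second. The mgl-2 gene (chromosome I, 10383144 to 10391388, minus strand) was listed at 10.2 and 11.4 FPKM in the mutant, against 8.17 and 9.43 FPKM in wild type. Its groups did not overlap, and its log2 fold change was 0.27 (SE 0.14, interval -0.15 to 0.70, limma adjusted p = 0.567). Exons of mgl-2 share 554 nt with maf-1 on the same strand, so reads from that stretch cannot be assigned to either gene, and no accession was matched to maf-1. All 9 genes share some exon bases with at least 1 other annotated gene, and apart from mgl-2 and mgl-1 every such neighbour lies on the opposite strand. For mgl-1 the same-strand neighbour is the noncoding gene ZC506.8, over 105 nt. The longest opposite-strand stretch is 431 nt, between glr-2 and the noncoding gene B0280.22. Strand use is not stated, so reads from opposite-strand stretches may not be assignable either.

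**Figure D2:**
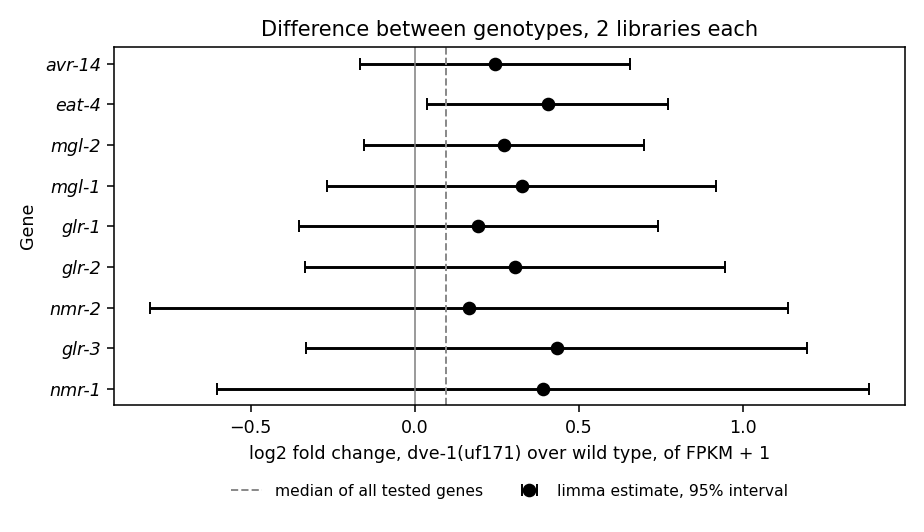
The log2 fold change of each gene, dve-1(uf171) over wild type on log2(FPKM + 1), with limma's 95% interval (2 libraries a genotype). All 9 estimates lie right of 0 and of the dashed median of all tested genes (0.09), and only the interval of eat-4 leaves out 0.

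The transcripts behind the gene sums were examined next. The 9 genes were covered by 17 RefSeq accessions, 1 each for glr-1, glr-3, nmr-1 and avr-14, and 13 for the other 5 genes. The Ensembl annotation gives avr-14 5 transcripts and glr-1, glr-3 and nmr-1 1 each. The level listed for avr-14 may therefore cover only part of the gene. Of the 17, 14 had a mean of at least 1 FPKM and 0 passed by limma, where 1.38% of 17854 transcripts did. For eat-4, NM_066622 was listed at 10.98 and 17.99 FPKM in the mutant, against 11.1 and 14.8 FPKM in wild type. The second eat-4 transcript, NM_001306696, was listed at 9.65 and 4.04 FPKM in the mutant, against 3.82 and 2.06 FPKM in wild type. It made up 46.8% and 18.3% of the gene's level in the mutant and 25.6% and 12.3% in wild type, so that the groups overlapped in this share. Its log2 fold change was 0.93 (SE 0.51, interval -0.60 to 2.46, limma adjusted p = 0.618), against 0.13 for NM_066622 (SE 0.32, interval -0.81 to 1.07, limma adjusted p = 0.899).

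In the metabotropic receptor genes the listed values shifted between transcripts within genotypes. For mgl-1, NM_077273 was listed at 0 and 4.94 FPKM in the mutant, against 0 and 4.89 FPKM in wild type. In the same order NM_001129721 was listed at 6.44 and 1.24 FPKM in the mutant, against 5.41 and 0 FPKM in wild type. The first library of each genotype thus held its largest value in NM_001129721, and the second library of each held it in NM_077273. For mgl-2, NM_001313468 was listed at 5.33 and 5.08 FPKM in the mutant, against 4.51 and 0 FPKM in wild type, while NM_060319 made up 100% of the gene in the second wild-type library. Values of 0 beside several FPKM in the other replicate are given as listed, since such a 0 can be a failed estimate. The transcripts of glr-2 and nmr-2 were above 0 in every library. For glr-2, NM_001025942 held 70.9% and 81.6% of the level in the mutant and 79.5% and 71.8% in wild type.

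**Figure D3:**
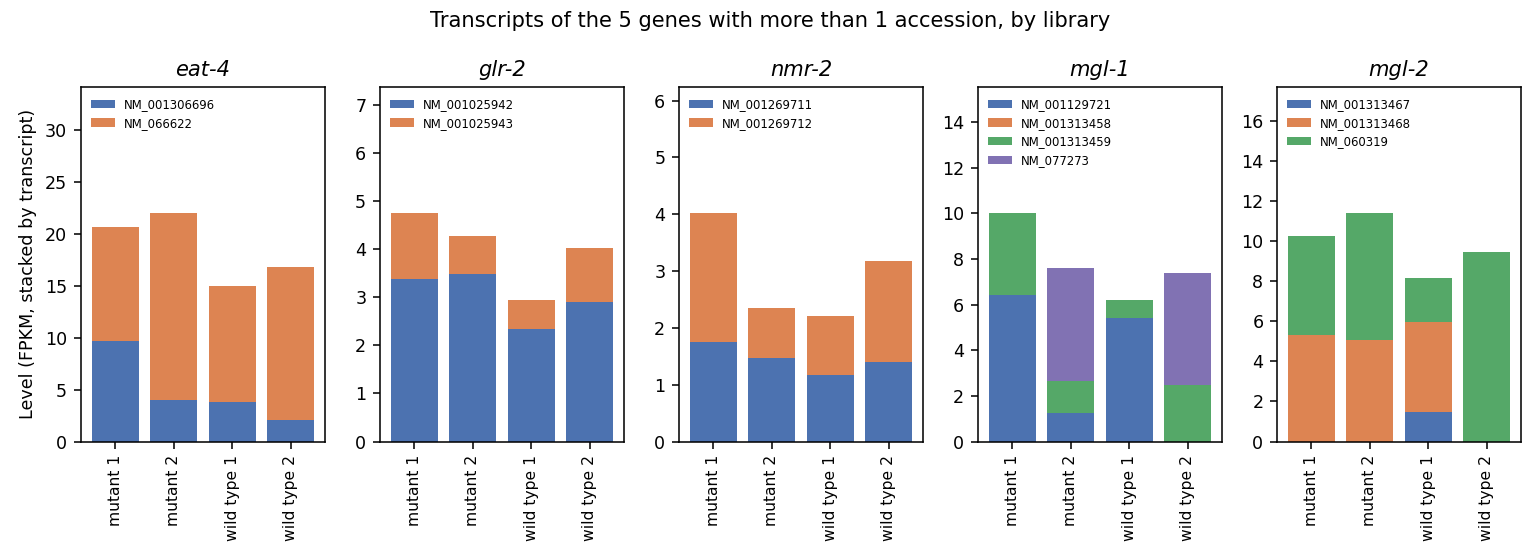
Stacked levels in FPKM of the RefSeq transcripts of the 5 genes with several accessions, 1 bar a library. For mgl-1 the transcript with the largest value differs between the 2 libraries of each genotype.

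The other genes of glutamate signalling were taken from lists of further receptors, transporters, enzymes, auxiliary proteins and identity factors. Of 56 genes listed, 53 were matched and 49 tested. Of these 49, 1 fell and 0 rose by limma, where 1.36% of all tested genes fell and 0.303% rose, and 8 were higher and 1 lower at an unadjusted p under 0.05, where 6.28% and 5.58% of all tested genes were. Among the further receptors (9 tested), 0 passed, all 9 estimates were above 0 (60.7% of all tested genes), and 6 had no overlap, with the mutant higher (28.1% of all tested genes). Their median log2 fold change was 0.30. The chloride channel subunit genes avr-15 and glc-4 were the most abundant. For avr-15 the values were 53.3 and 45.0 FPKM in the mutant, against 39.3 and 39.8 FPKM in wild type, and for glc-4 they were 28.7 and 27.8 FPKM in the mutant, against 18.4 and 26.7 FPKM in wild type. A further subunit gene, glc-1, had the largest estimate among these receptors, at 13.5 and 9.17 FPKM in the mutant, against 5.69 and 7.18 FPKM in wild type (log2 fold change 0.72, SE 0.25, limma adjusted p = 0.439).

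Among the further transporter genes (8 tested), 0 passed, all 8 estimates were above 0 and 6 had no overlap, with the mutant higher and a median log2 fold change of 0.41. The shares over all tested genes are the same 60.7% and 28.1%. GLT proteins take glutamate up from the extracellular space. The gene glt-1 was listed at 93.0 and 101.3 FPKM in the mutant, against 73.2 and 83.7 FPKM in wild type. Its estimate turned to -0.15 when only its most abundant transcript was used. The gene glt-3 was listed at 33.7 and 33.3 FPKM in the mutant, against 17.1 and 22.6 FPKM in wild type (limma adjusted p = 0.315, log2 fold change 0.74, SE 0.18). The largest estimate of this list belonged to glt-6, at 9.06 and 9.10 FPKM in the mutant, against 3.78 and 5.03 FPKM in wild type (log2 fold change 0.91, SE 0.18, limma adjusted p = 0.238). Its mutant libraries lay close together and above both wild-type libraries.

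Among enzymes that make or use glutamate and glutamine (8 tested), 1 fell, and the median log2 fold change was 0.04. This was glna-1, which encodes a glutaminase, an enzyme that forms glutamate from glutamine. It was listed at 3.07 and 2.98 FPKM in the mutant, against 13.5 and 15.3 FPKM in wild type (limma adjusted p = 0.0359, log2 fold change -1.94, SE 0.14). The 4 glna-1 transcripts did not overlap between genotypes in which of them held a value, but here too a listed 0 can be a failed estimate. The Ensembl annotation gives the gene 7 transcripts, so some may be missing. NM_001267519 was listed at 3.07 and 2.98 FPKM in the mutant and at 0 in both wild-type libraries. NM_001267518 was listed at 0 in both mutant libraries, against 6.92 and 10.5 FPKM in wild type. NM_064653 was likewise at 0 in both mutant libraries, against 4.63 and 4.75 FPKM in wild type. The fourth, NM_001306653, was at 0 in both mutant libraries and at 2.00 and 0 FPKM in wild type, too low to be tested. None of the other 3 passed by limma (adjusted p = 0.207, 0.063 and 0.0965). The gene itself missed the threshold with any 1 library left out (limma adjusted p = 0.256 and 0.202 when mutant replicate 1 or 2 was dropped, and 0.13 and 0.137 when wild-type replicate 1 or 2 was dropped). Its log2 fold change lay between -2.02 and -1.85 in these fits, in which 1 genotype has a lone library that is assumed to vary like those of the other.

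Auxiliary subunits and proteins of receptor assembly and traffic (15 tested) had 0 genes past the threshold, 6 with both mutant values above and 2 with both below, beside 28.1% and 15.9% of all tested genes, and a median log2 fold change of 0.11. The kinase gene unc-43, the worm's CaMKII, stood at 429 and 519 FPKM in the mutant, against 504 and 541 FPKM in wild type. The cornichon gene cni-1 stood at 135 and 144 FPKM in the mutant, against 146 and 152 FPKM in wild type. The stargazin-type gene stg-2 had the largest estimate, at 9.83 and 9.38 FPKM in the mutant, against 5.45 and 7.69 FPKM in wild type (log2 fold change 0.50, SE 0.20, limma adjusted p = 0.487). Identity factors of glutamatergic neuron classes (9 tested) had 0 genes past the threshold, 0 with both mutant values above and 1 with both below, beside the same 28.1% and 15.9%, and a median of -0.03. The homeobox gene unc-42 stood at 93.9 and 72.8 FPKM in the mutant, against 59.3 and 77.5 FPKM in wild type. The POU homeobox gene unc-86 stood at 32.5 and 25.2 FPKM in the mutant, against 32.3 and 37.7 FPKM in wild type. Both groups of values overlapped.

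**Figure D4:**
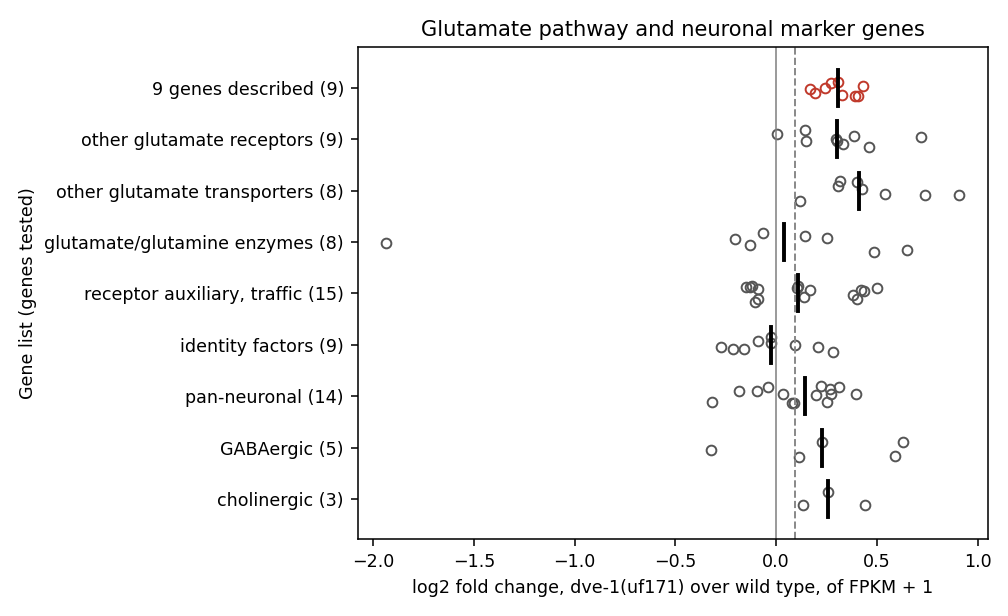
The log2 fold change of each tested gene, dve-1(uf171) over wild type on log2(FPKM + 1), by list, with black bars at list medians and a dashed line at the median of all tested genes (0.09). The 9 genes described, the other receptors and the other transporters lie right of 0, the identity factors lie on both sides, and glna-1 stands apart at -1.94.

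The mutated gene dve-1 was listed at 23.4 and 25.5 FPKM in the mutant, against 15.1 and 19.5 FPKM in wild type (limma adjusted p = 0.439). An allele can alter a protein without altering its RNA, so these values are no check of the labels. For the marker lists that follow, counts of genes with both mutant values above or both below stand beside 28.1% and 15.9% of all tested genes. Pan-neuronal genes (14 tested) had 3 with both mutant values above and 1 with both below, a median log2 fold change of 0.14, and summed levels of 2426 and 2087 FPKM in the mutant against 1965 and 2276 FPKM in wild type. GABAergic markers (5 tested) had 4 above and 0 below, a median of 0.23 and sums of 146 and 141 FPKM in the mutant against 111 and 119 FPKM in wild type. Cholinergic markers (3 tested) had 3 above and 0 below, a median of 0.26 and sums of 68.1 and 72.5 FPKM in the mutant against 55.6 and 58.9 FPKM in wild type. The cholinergic list held 4 genes, of which unc-17 was not matched and is missing from this count and these sums. Body wall muscle (6 tested), pharynx (5 tested) and intestine (6 tested) markers had medians of -0.02, 0.16 and 0.02. Muscle had 0 above and 2 below, pharynx 1 above and 0 below, and intestine 0 above and 2 below. Their sums were 2967 and 2813, 1571 and 1392, and 2952 and 3615 FPKM in the mutant, against 2851 and 2631, 1129 and 1453, and 4434 and 4727 FPKM in wild type. Of these marker genes only mtl-2, an intestinal metallothionein gene, passed (284 and 271 FPKM in the mutant against 553 and 561 FPKM in wild type, limma adjusted p = 0.0458). It missed with any 1 library left out (limma adjusted p 0.0953 to 0.157), where the log2 fold change lay between -1.03 and -0.97. It also missed after quantile normalization (0.0533), without limma's trend (0.0937), with robust estimation (0.063), under a filter at 5 FPKM (0.0755) and with a replicate block (0.321). Most of the intestine sum came from asp-1, at 2598 and 3306 FPKM in the mutant, against 3851 and 4141 FPKM in wild type (limma adjusted p = 0.44). Of the 6 intestine estimates 3 were above 0, among them that of cpr-6, which was listed at 0 in 3 libraries. Hypodermis markers (5 tested, 1 above and 0 below, median 0.12) varied within each genotype, with sums of 37.7 and 103 FPKM in the mutant, against 188 and 20.1 FPKM in wild type. The part of these differences in the values of the 9 genes was not tested.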

How the data were processed

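Bulk RNA-seq of whole L1 larvae gave 4 libraries, grouped and numbered by their titles. The submitters' processing notes name TopHat2, Cufflinks and build ce11. Versions, strand use and the handling of reads with several alignments are stated in no source used here. The authors deposited FPKM for 52491 RefSeq accessions in each library. Accessions were matched without version to a RefSeq gene table of WBcel235. Of them, 47645 matched, giving 41614 genes, and FPKM were summed per gene. The other 4846, with 20.9% to 21.7% of all FPKM, were not used, so a transcript of a described gene among them would be missing from its sum. Ensembl's annotation of WBcel235 gave gene positions and shared exon bases.

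Genes averaging 1 FPKM or more entered limma 3.58.1 (R 4.3.3, intensity trend) on log2(FPKM + 1), mutant over wild type. P-values were Benjamini-Hochberg adjusted over all 15202 genes (threshold 0.05). This scale understates the change of low genes. The test was also run on single transcripts, and its script was tested on simulated data. For the depth estimate, values under 0.3 FPKM of transcripts between 400 and 4000 nt were fitted to whole reads. No separate cultures are stated, so the p-values may reflect technical spread between these samples only. Named from each pathway list were genes past the threshold, otherwise the 2 most abundant and the largest estimates each way. From marker lists called genes were named, unc-17 was named as unmatched, and cpr-6 and asp-1 were named after their values were seen. The members and lists were chosen with earlier results of these data known. Alternatives covered the pseudocount, filter, scaling, limma settings, a replicate block, gene class, most abundant transcript and each library left out. For the count of genes without overlap and the median of the 9 genes, they were chosen after seeing the data.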

Additional observations from a re-analysis of the deposited data

How the results depend on the processing

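No alternative brought any of the 9 genes past the limma threshold. All alternatives reused the same 4 libraries, and the filter at 5 FPKM tested only 4 of the 9 genes. With a replicate block 0 of all tested genes passed, so a miss there does not set these genes apart. Of the 130 fits of single genes, 2 reversed direction. Both were nmr-2, at -0.12 without the first mutant and -0.025 without the first wild-type library, within a range of -0.12 to 0.46 over single libraries left out. Among named genes of other lists, glt-1 reversed (-0.15) with its most abundant transcript alone. The count of 9 genes called stayed at 0, and so did that of their transcripts. The median log2 fold change of the 9 genes was 0.18 to 0.37 with 1 library left out and 0.22 after median-ratio scaling, which moved the median of all genes to 0.006. The count with both mutant values above was 4 with the most abundant transcript alone (27.2% of all tested genes). It was 7 to 9 with 1 library left out (40.3% to 47.03% of all tested genes), a setting that cannot lower it. The single call among other pathway genes, glna-1, became 0 without a filter, at a mean of at least 5 FPKM, with the most abundant transcript alone, with the replicate block, and with any 1 library left out (0 to 0). With a replicate block 0 of all 15202 genes passed, against 252 without it. Deviations of same-numbered libraries from their group means had a correlation of -0.056 over 15202 genes. Shared and opposite shifts of different genes can cancel in it, so it cannot decide whether the numbers pair the samples.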

Other observations

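The plasma membrane transporter gene glt-1 had a pair of transcripts with unlike estimates, neither past the threshold, chosen for mention after their values were seen. NM_001029222 was listed at 36.3 and 36.2 FPKM in the mutant, against 12.02 and 9.72 FPKM in wild type, without overlap. Its log2 fold change was 1.66 (SE 0.16, interval 1.19 to 2.12), which missed the threshold over all transcripts (limma adjusted p = 0.0554). NM_001029223 was listed at 56.7 and 65.1 FPKM in the mutant, against 61.2 and 74.0 FPKM in wild type (log2 fold change -0.15, SE 0.16, limma adjusted p = 0.711), with overlapping groups. The difference between these transcripts was not tested, and how the reads were divided between them is stated in no source used here.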
